A study of Mus musculus with 20 samples.

Results

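The genes described here encode the protein components of the cytosolic ribosome. They were taken by symbol from a count table of 12988 genes: every symbol that begins with Rpl or Rps and a digit, together with Rplp0, Rplp1, Rplp2, Rpsa and Fau, leaving out the Rps6k kinases, Rps19bp1 and names that mark pseudogenes. This gave 80 genes, 47 of the large and 33 of the small subunit, and all 80 passed the filter on low counts. Rpl26, Rpl30, Rpl34 and Rps27 were not analysed here. RNA came from the anterodorsal BNST (bed nucleus of the stria terminalis), a nucleus of the basal forebrain known for its role in anxiety and stress responses. Female and male mice, 7 to 9 weeks of age at the start, either were left as controls or went through a 6-week schedule of randomised minor stressors named chronic variable mild stress, and stressed mice were sampled 1 hour after the last of these, wet bedding. All mice were anaesthetised with ketamine, and the labels give no strain. Each of the 4 groups (controls and stressed mice of either sex) held 15 mice, whose tissue was pooled by 3 into 5 libraries, so the 20 libraries average over mice and p-values measure the spread between pools.

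The ribosome is built of a small subunit, which reads the messenger RNA, and a large subunit, which joins amino acids and carries the flexible stalk that recruits elongation factors. Its proteins are needed in equal numbers, except for the stalk proteins, and their mRNAs are among the best known of the class that starts with a terminal oligopyrimidine tract, a C followed by a run of pyrimidines. Translation of this class is held under control of the kinase mTOR and the cap-binding protein Larp1. In neurons ribosomes are also found in dendrites, where they serve local protein synthesis.

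The start of the transcript is shown here because these genes moved together across libraries, as described below, and because the tract is the feature that names their class. RefSeq (GRCm38.p6) promoters, from 250 bases before the annotated start to 50 bases from it on, were matched by symbol for 60 of the 80 genes. Each line gives 30 bases on the gene's own strand, 15 on either side of the boundary at which the annotated transcript begins, with the pyrimidine tract in capitals.
Rpl14, chr9:120571502-120571531, plus strand: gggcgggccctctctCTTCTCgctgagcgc
Rpl38, chr11:114668565-114668594, plus strand: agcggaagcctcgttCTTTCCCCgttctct
Rpl28, chr7:4792950-4792979, plus strand: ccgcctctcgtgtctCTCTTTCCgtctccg
Rps6, chr4:86857353-86857382, minus strand: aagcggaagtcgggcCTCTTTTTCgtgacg
Fau, chr19:6057932-6057961, plus strand: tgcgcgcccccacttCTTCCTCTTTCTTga
Rps3, chr7:99483695-99483724, minus strand: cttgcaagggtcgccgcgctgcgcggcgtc

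A tract was counted where the annotated first base was a C followed by at least 4 bases that were each C or T, on the gene's strand. A gene with several annotated starts was counted if any of them had the tract, and likewise for the hexamer below. The start printed above was chosen to show a tract where any start of the gene did. By this rule 13 of the 60 matched genes had a tract, 21.7%, against 306 of 10338 genes of the table with a promoter, 2.96%. With the first base allowed up to 5 bases to either side of the annotated start, the numbers were 28 of 60, 46.7%, and 23.9%. The tracts of these 28 genes were 5 to 17 bases long, with a median of 8.0. Large and small subunit genes held the tract in similar shares with that allowance, 16 of 36 and 12 of 24. The hexamer CCGGAA, the core of sites of ETS family transcription factors, was found on either strand of the 300 bases in 31 of 60 genes, 51.7%, against 29.8% of the 10338. Its reverse complement can overlap a pyrimidine tract. These matches describe letters in a window, and Rps3, printed last, shows none at its annotated start.

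Libraries held from 2707881 counts (female control 4) to 33595388 counts (male stressed 4). The lowest total of any of the 80 genes over the 20 libraries was 2346 counts, for Rps27l. The sex labels were checked with the Y-linked Eif2s3y, which had a mean of 0.0302 and 0.0359 CPM (counts scaled to the effective size of the library) in the female groups and of 52.7 and 45.9 CPM in the male groups. Neuronal markers (8 of 8 listed genes) and markers of GABA neurons (3 of 3), the main neurons of this region, were measured in every library, at summed levels of 4230 to 4929 and of 1964 to 2315 CPM. In bulk tissue, fewer cells of a type and less RNA per cell cannot be told apart.

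The 80 genes together took about 1 in 100 counts, and this share differed between libraries far more than between groups. In female controls 1 to 5 the share of all counts was 0.993%, 1.03%, 1.01%, 0.840% and 0.856%, and in female stressed libraries 1.08%, 0.987%, 1.1%, 0.770% and 0.796%. In male controls it was 0.989%, 1.02%, 0.941%, 0.997% and 1.09%, and in male stressed libraries 0.808%, 0.749%, 1.05%, 1.17% and 0.986%. Male stressed 2 was the lowest and male stressed 4 the highest of all 20, a 1.56-fold range within 1 group. The group means were 0.946% ± 0.0899 (SD, n = 5) in female controls, 0.946% ± 0.155 in female stressed, 1.01% ± 0.0531 in male controls and 0.953% ± 0.173 in male stressed libraries. All 4 groups overlapped, and male controls had the smallest spread.

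**Figure D1:**
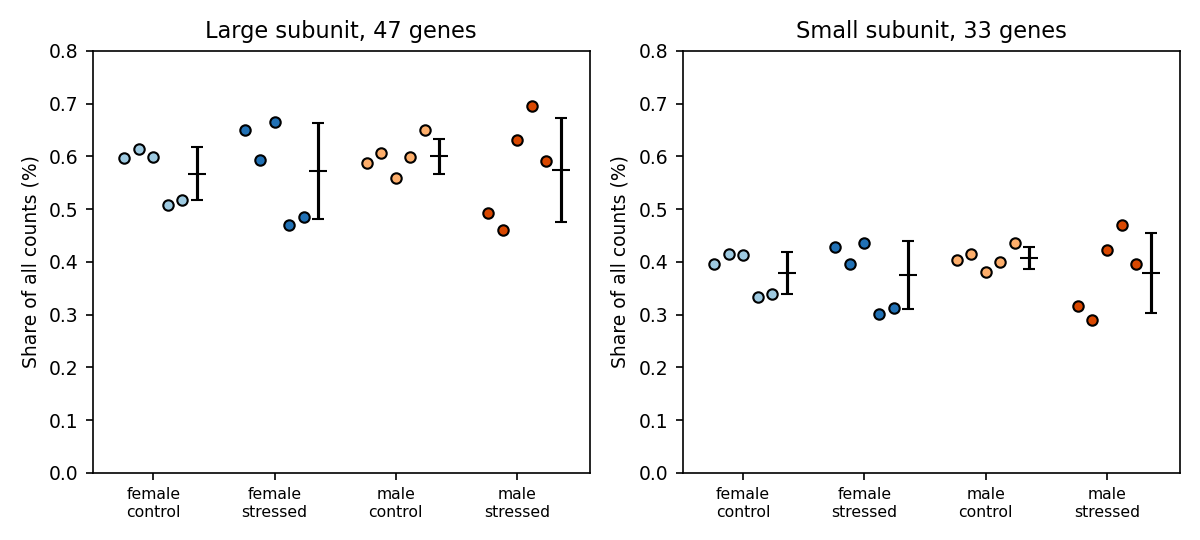
Share of all counts (%, vertical axis) taken by the 47 large subunit genes (left) and the 33 small subunit genes (right) in each of the 5 libraries of a group, in replicate order, with the mean and SD beside them. Female control 4 and 5, female stressed 4 and 5 and male stressed 1 and 2 lie below the other libraries in both panels, and the group means lie close together.

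Both subunits followed the same course. The large subunit genes took 0.460% to 0.696% of counts and the small subunit genes 0.289% to 0.470%, and the ratio of the large to the small share stayed between 1.45 and 1.59 with a median of 1.499. A mean was taken over the genes of log2 CPM, each centred on its own mean over the libraries, and is called the ribosomal protein mean below. Over the 20 libraries this mean for the large subunit tracked that for the small subunit with r = 0.993 (rho 0.976, and r 0.988 without the 2 libraries farthest from the median). Such values are descriptions over libraries that share reagents, scaling and depth differences, and carry no p. The mean over all 80 genes ran from -0.385 in male stressed 2 to 0.301 in male stressed 4, a 1.61-fold range, with an SD of 0.203 between libraries of the same group. The widest step in the ordered values, 0.129, separated the 6 lowest libraries from the 14 others, and those 6 were female control 4 and 5, female stressed 4 and 5, and male stressed 1 and 2. The low libraries thus carry the same numbers in both female groups but not in males, and whether these numbers mark a shared batch is not given in the labels.

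Nearly every gene followed the others. With group means removed, the correlation of a gene's log2 CPM with the mean of the remaining genes had a median of 0.946 over the 80 genes (0.942 for the large and 0.946 for the small subunit), and it exceeded 0.8 in 70 of 80 and 0.9 in 59 of 80. Of the 12908 other genes, 207 (1.60%) exceeded 0.8 with the ribosomal protein mean. The 3 highest were Rps3, a small subunit protein at the site where mRNA enters (r 0.990), Rpl37 (0.987) and Rpl12 (0.986). Rps3 measured 210, 215, 215, 171 and 176 CPM in female controls and 223, 201, 222, 147 and 158 CPM in female stressed libraries. It measured 204, 222, 204, 202 and 223 CPM in male controls and 153, 140, 213, 241 and 204 CPM in male stressed libraries. Its pattern repeats that of the share, with the same 6 libraries at the bottom and overlapping groups.

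**Figure D2:**
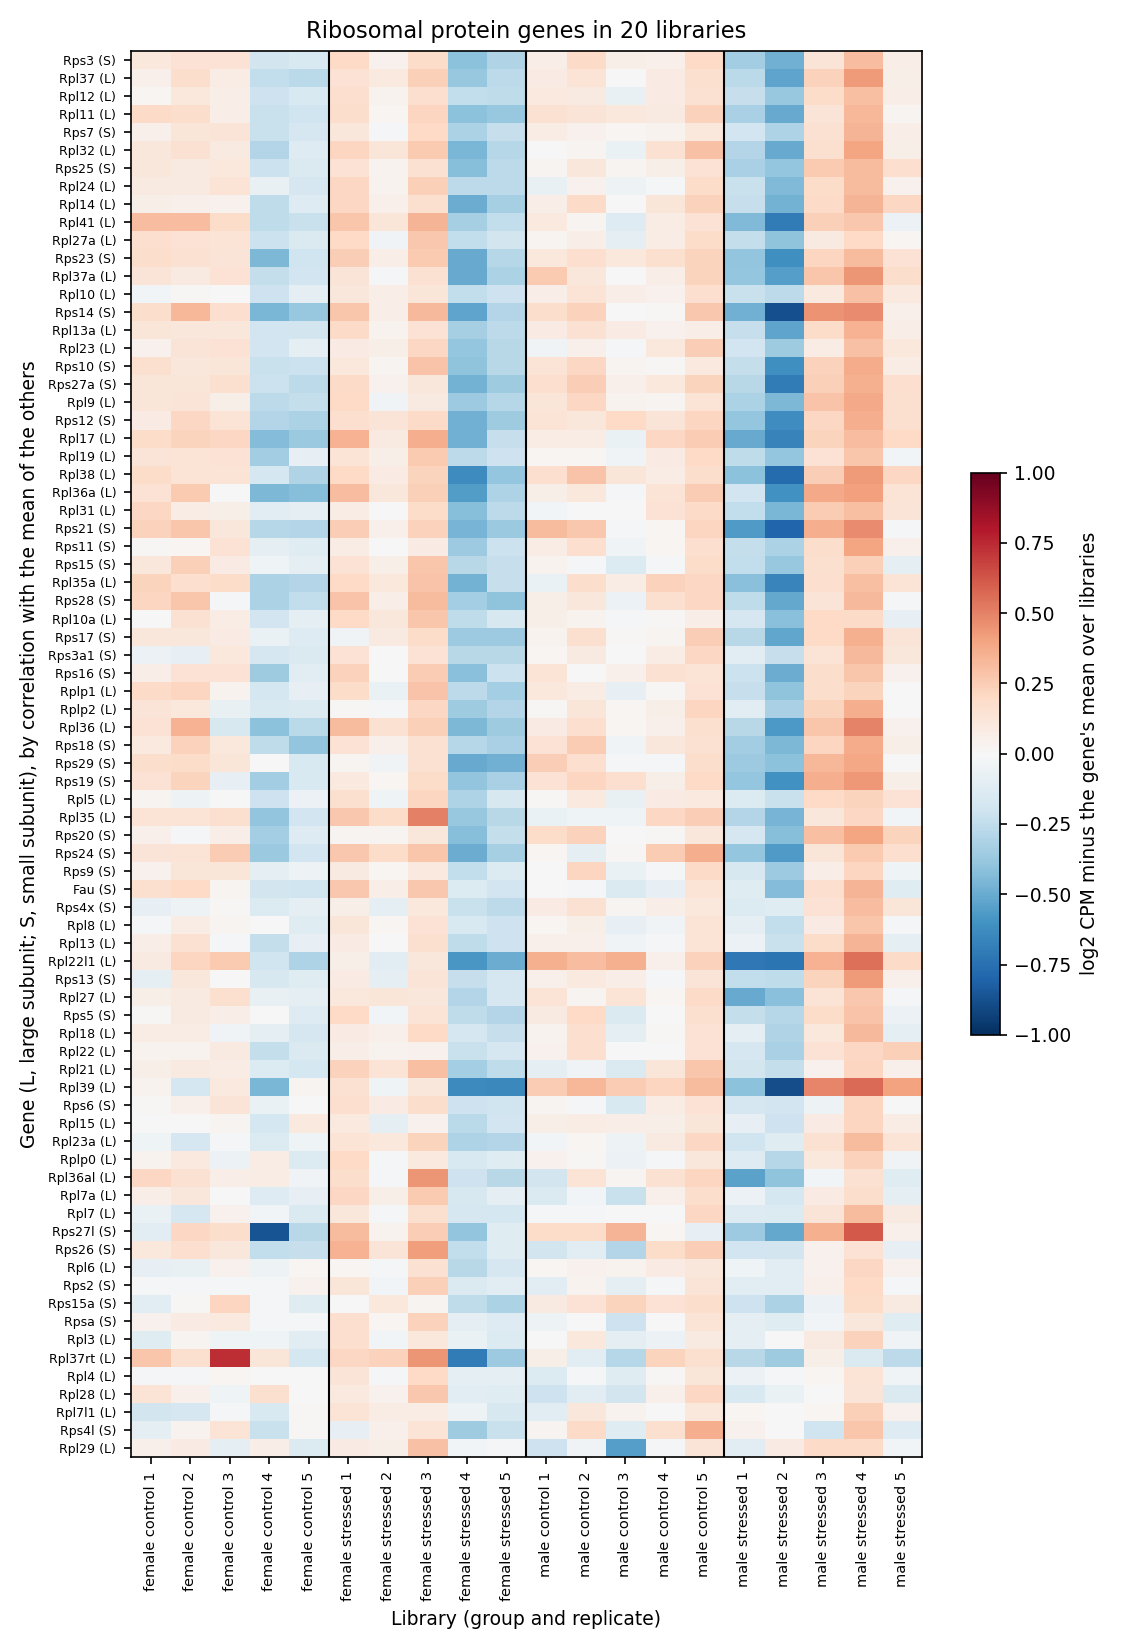
Log2 CPM of 78 of the 80 genes minus that gene's mean over the libraries (colour), with genes as rows, ordered from the highest to the lowest correlation with the mean of the others, and the 20 libraries as columns, grouped by sex and treatment. The blue columns (female control 4 and 5, female stressed 4 and 5, male stressed 1 and 2) and the red column (male stressed 4) cross nearly the whole list, and the pattern fades in the bottom rows, from Rpl37rt to Rpl29.

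The 4 genes least like the others were Rpl29 (r 0.495), Rps4l (0.523), Rpl7l1 (0.537) and Rpl28 (0.574). Rpl29, a protein on the surface of the large subunit, measured 78.5, 80.1, 71.0, 79.1 and 68.7 CPM in female controls and 80.03, 78.7, 92.4, 74.2 and 75.1 CPM in female stressed libraries. In males it measured 65.6, 73.7, 51.5, 74.5 and 82.7 CPM in controls and 70.0, 79.9, 86.5, 86.2 and 74.1 CPM in stressed libraries. Its lowest value was in male control 3 rather than in any of the 6 libraries named above. Rpl28, whose start carries one of the tracts printed above, also belongs to these 4, while Rps3, with no tract at its annotated start, stands first. Over the 60 genes with a promoter, the median correlation was 0.938 for the 28 with a tract and 0.956 for the 32 without one. Which genes count as having a tract depends on where the start is annotated. Whether the tract goes with the shared movement was not tested. Across the 80 genes the correlation itself had a rho of -0.222 with transcript length, -0.185 with GC content, 0.0737 with mean CPM and -0.113 with the number of named pseudogenes.

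Genes that moved together did not move by the same amount. The highest over the lowest CPM among the 20 libraries was 1.26-fold for Rpl4, 1.29-fold for Rpl3 and 1.31-fold for Rps2, and 2.78-fold for Rps27l, whose lowest value came from the shallowest library, 2.74-fold for Rpl39, 2.71-fold for Rpl37rt and 2.55-fold for Rps14, with a median of 1.69-fold. As a slope, the change in a gene's log2 CPM for a change of 1 in the mean of the others within groups, the values ran from 0.267 for Rpl7l1 and 0.320 for Rpl4 to 1.92 for Rps14, with a median of 0.975. Rps14, a protein of the small subunit platform, measured 103, 116, 103, 67.0 and 70.5 CPM in female controls and 111, 96.2, 115, 63.7 and 74.8 CPM in female stressed libraries. It measured 104, 108, 92.2, 92.3 and 111 CPM in male controls and 65.7, 49.8, 125, 127 and 95.1 CPM in male stressed libraries. Rpl4, by contrast, ranged only from 434 to 548 CPM over the same 20 libraries. The slope was larger in genes with shorter transcripts (rho -0.565 across the 80 genes, which are not independent), and less closely related to mean CPM (-0.335), GC content (-0.206) or number of named pseudogenes (-0.128).

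Other genes moved with the ribosomal proteins too, and transcript length ordered them. The mean of the shortest 10% of transcripts in the table, 1233 genes with no ribosomal protein gene among them, tracked the ribosomal protein mean over the 20 libraries with r = 0.963 (rho 0.925, and 0.957 without the 2 farthest libraries). Within the 14 libraries above the widest step the r was 0.815, and within the 6 below it 0.936. The 78 mitochondrial ribosomal protein genes, which serve the separate ribosome of mitochondria, gave r = 0.948 (rho 0.923, and 0.925 without 2), with 0.874 and 0.989 on either side of the step. The longest 10% of transcripts ran the other way, with r = -0.577 (rho -0.617, and -0.419 without 2). Total counts per library on a log10 scale gave r = 0.385 (rho 0.391, and 0.325 without 2), and the 6 lowest libraries held from 2707881 to 25384032 counts. In 10 bins of transcript length, the median within-group correlation of the other genes with the ribosomal protein mean fell in steps from 0.447 in the shortest to -0.323 in the longest. In 10 bins of GC content it stayed between -0.0548 and 0.0692. The median transcript of the 80 genes was 747.5 bases long, against 2644 bases over all genes with a length. After the trend on length and GC content was removed from each library, the SD of the ribosomal protein mean between libraries of a group went from 0.203 to 0.134, and the order of libraries was nearly kept (r 0.990 between the values before and after). The part of RNA quality in this shared movement was not tested.

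**Figure D3:**
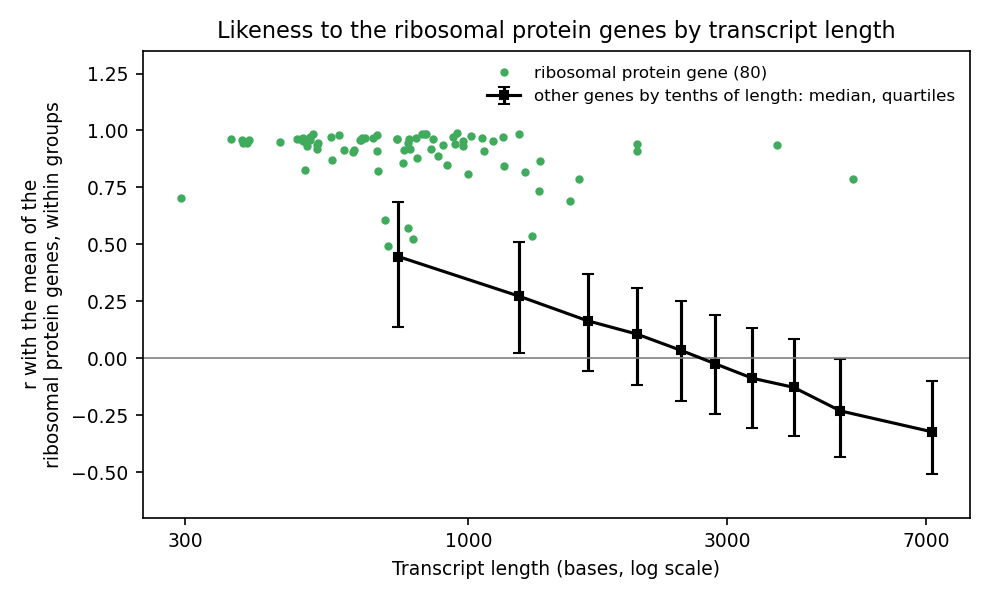
Within-group correlation with the ribosomal protein mean (vertical axis) against transcript length in bases (horizontal axis, log scale). Green points are the 80 ribosomal protein genes, each against the mean of the others, and black squares with bars are medians and quartiles of the other genes in 10 bins of length, which go down from 0.447 to -0.323.

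The genes nearest to the ribosomal protein mean outside the group, chosen after their values were seen, were Ndufb9, a subunit of respiratory complex I (r 0.964), Serp2 (0.962), the elongation factor subunit Eef1b2 (0.958), Tma7 (0.956) and Srp14 of the signal recognition particle (0.955). Their transcripts had 386 to 705 bases. The farthest were Fam168a (-0.914), Atrn (-0.909), Slc7a14 (-0.906), the neuronal adhesion gene Cntnap2 (-0.901) and the kinesin Kif1b (-0.896).

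Stress changed no ribosomal protein gene at the threshold used, an adjusted p under 0.05 in edgeR's quasi-likelihood test over all 12988 genes. In females 0 of 80 were called (0% of all genes were), and 0 of 80 had an unadjusted p under 0.05 (7.51% of all genes had). In males 0 of 80 were called (0.0077% of all genes) and 1 of 80, Rps15a, had an unadjusted p under 0.05 (15.5% of all genes). Averaged over the sexes, 0 of 80 were called (0% of all genes), with Rps15a alone at an unadjusted p under 0.05 (12.7% of all genes). DESeq2 and limma-voom also called 0 of 80 in each of these comparisons. The median log2 fold change, stressed minus control, was -0.03 in females (58 of 80 below 0) and -0.06 in males (65 of 80 below 0), against -0.00111 and -0.00673 over all genes. The sign of these medians has little weight, since the genes share their library to library movement and the spread of their mean within groups, 0.203, was several times as large. Without female stressed 4 the female median was 0.03, without female stressed 5 it was 0.02, and without male stressed 2 the male median was 0.02. In no ribosomal protein gene did all stressed libraries lie to one side of all controls, in females (1.22% of all genes) or in males (4.3% of all genes).

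Rps15a, a protein of the small subunit body, had the smallest p. It measured 140.9, 147, 155, 146 and 150 CPM in male controls and 115, 106, 127, 151 and 140.6 CPM in male stressed libraries. It measured 122, 134, 154, 131 and 122 CPM in female controls and 132, 143, 135, 111 and 107 CPM in female stressed libraries. The male groups overlapped only through male stressed 4. Among females, stressed 4 and 5 lay below every control, and the other stressed libraries lay within the range of the controls. Female stressed 4 and 5 and male stressed 1 and 2 belong to the 6 low libraries named above. The log2 fold change was -0.20 ± 0.09 (SE) in males (edgeR adjusted p = 0.28) and -0.08 ± 0.09 in females (adjusted p = 0.875). Next in males came Rpl29, with 0.18 ± 0.09 (adjusted p = 0.355), and Rpl36al, with -0.21 ± 0.12 (adjusted p = 0.427). In females the smallest p belonged to Rpl7l1 (0.11 ± 0.07, adjusted p = 0.732), Rpl37rt (-0.28 ± 0.18, adjusted p = 0.742) and Rps29 (-0.23 ± 0.14, adjusted p = 0.742). Over both sexes they were Rps15a (-0.14 ± 0.06, adjusted p = 0.364), Rpl37rt (-0.26 ± 0.12, adjusted p = 0.393) and Rpl29 (0.13 ± 0.07, adjusted p = 0.394). None of these passed the test.

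Markers of striatal neurons, the type that borders this nucleus, differed between the male groups. Their summed level over 8 of 8 listed genes was 1666 to 2141 CPM in male controls and 2470 to 3958 CPM in male stressed libraries, with 1836 to 3475 CPM in female controls and 1799 to 3872 CPM in female stressed libraries. In single genes 0 of 8 were called in males, and 8 of 8 had an unadjusted p under 0.05, higher in stressed males. Summed astrocyte markers (8 genes) also lay apart: unstressed males spanned 4932 to 5067 CPM, and stressed males 5238 to 5484 CPM. Among the single genes 0 of 8 were called, and 1 of 8 had an unadjusted p under 0.05, higher after stress. Their median log2 fold change was 0.01. Slc1a2, the largest term, had a male mean of 2897 CPM without stress and 3204 CPM with it. Aqp4, Gfap and Fgfr3 had lower means in stressed males. The separation of the sums is thus not a shift shared by the whole list. Choroid plexus and ependyma markers (3 of 6 listed genes) lay at 57.35 to 61.89 CPM in male controls and 62.66 to 71.42 CPM in stressed males. Here 0 of 3 were called, and 1 of 3 had an unadjusted p under 0.05, higher in stressed males. The mean went from 26.92 to 33.52 CPM for Foxj1, from 21.67 to 23.9 CPM for Clic6 and from 10.42 to 10.28 CPM for Kl. The other marker lists overlapped between the male groups. Oligodendrocyte markers (9 of 9 listed genes) summed to 8703 to 12500 CPM in female controls and 8166 to 10070 CPM in female stressed libraries, where 5 of 9 had an unadjusted p under 0.05, lower in stressed females, and 0 of 9 were called. Over the 20 libraries the mean of the striatal markers had r = -0.402 with the ribosomal protein mean (rho -0.257, and -0.460 without 2), and the other marker lists had r between -0.413 for GABA neurons and 0.170 for choroid plexus and ependyma. The part of these marker lists in the stress comparison was not tested.

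The stress effect was then compared between the sexes. The interaction, the male minus the female effect, had 0 of 80 genes called (0% of all genes) and 0 of 80 at an unadjusted p under 0.05 (10.4% of all genes), with 0 calls by DESeq2 and limma-voom. The smallest p belonged to Rps15a (-0.12 ± 0.13, adjusted p = 0.790), Rpl35 (-0.20 ± 0.21, adjusted p = 0.790) and Rps26 (-0.15 ± 0.17, adjusted p = 0.827). The standard errors of single genes ran from 0.09 to 0.29, with a median of 0.17, and a p that misses the threshold does not show that the sexes responded alike.

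**Figure D4:**
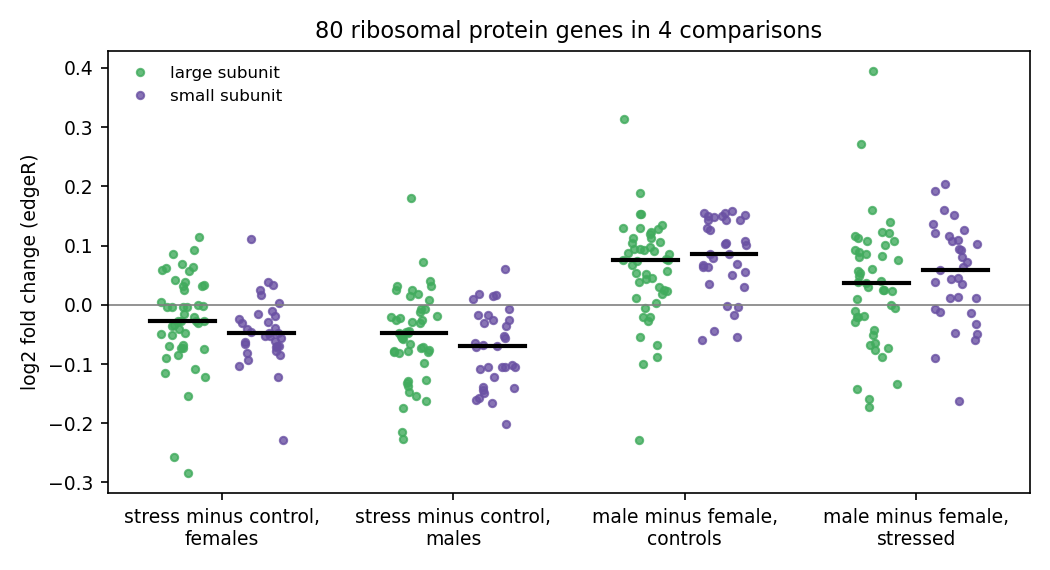
Log2 fold change of each of the 80 genes (points, vertical axis) in the 4 pairwise comparisons, with large subunit genes in green, small subunit genes in purple and a bar at each median. The stress comparisons have medians below 0 and the sex comparisons medians above 0, each within 0.09 of 0. Each of the 4 groups enters 2 of these comparisons.

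Males and females were compared within each treatment, as male minus female, and these comparisons share their libraries with the stress comparisons. In controls 0 of 80 ribosomal protein genes were called (0.747% of all genes) and 0 of 80 had an unadjusted p under 0.05 (15.3% of all genes). In stressed mice 0 of 80 were called (0.077% of all genes), and Rps4x alone had an unadjusted p under 0.05 (7.06% of all genes). DESeq2 and limma-voom called 0 of 80 in both. The median log2 fold change was 0.08 in controls (65 of 80 above 0) and 0.04 in stressed mice (53 of 80 above 0), against 0.000247 and -0.000349 over all genes. Without male stressed 4, female stressed 4 or female stressed 5 the median in stressed mice was -0.05, -0.02 and -0.02. The striatal markers given above also differed between control males and females, with 7 of 8 at an unadjusted p under 0.05, lower in males, and of the endothelial markers Cldn5 was called (-0.44 ± 0.08, adjusted p = 0.0122). Astrocyte markers summed to 5207 to 5843 CPM in female controls and 4932 to 5067 CPM in male controls, without overlap. Among them 0 of 8 were called, and 2 of 8 had an unadjusted p under 0.05, lower in males. Slc1a2, the largest term of the sum, had means of 3286 CPM in female controls and 2897 CPM in male controls. Gja1 and Fgfr3 had higher means in male controls. Of the microglia markers 4 of 8 had an unadjusted p under 0.05, lower in males, and 0 of 8 higher. The part of these markers in the sex comparison was not tested. The smallest p in controls belonged to Rps4x, Rpl7l1 (0.13 ± 0.07, adjusted p = 0.378) and Rps15a (0.16 ± 0.09, adjusted p = 0.436), and in stressed mice to Rps4x, Rpl39 and Rps20 (0.20 ± 0.12, adjusted p = 0.755).

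Male and female control libraries did not overlap in 3 of the 80 genes, Rps4x, Rpl39 and Rpl10, all higher in males. This number is near the background of 3.97% of all genes and is no result about the ribosomal protein genes. The 3 genes lie on the X chromosome, which holds 4 of the 80, and 16 of the 463 other X-linked genes measured (3.46%) were higher in all male than in all female controls. Whether X-linked ribosomal protein genes differ from others in this was not tested. In stressed mice 0 of 80 genes separated the sexes in this way (1.27% of all genes). The X-linked genes are given for every library because the study compares the sexes.

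Rps4x, a small subunit protein encoded at chrX:102184941-102189394 (mm10, minus strand), measured 156, 160, 167, 151 and 156 CPM in female controls and 175, 184, 169, 173 and 178 CPM in male controls. It measured 173, 155, 178, 142 and 138 CPM in female stressed libraries and 151, 152, 183, 205 and 180 CPM in male stressed libraries. The control groups lay apart by a narrow margin, and in stressed mice male libraries 1 and 2 fell within the range of the females. The log2 fold change was 0.15 ± 0.08 in controls (adjusted p = 0.362) and 0.16 ± 0.08 in stressed mice (adjusted p = 0.701).

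Rpl39, a very small protein that lines the exit tunnel of the large subunit, lies at chrX:37082520-37085402 (minus strand). It measured 21.2, 18.3, 22.1, 15.1 and 21.0 CPM in female controls and 24.6, 26.0, 24.6, 24.1 and 25.7 CPM in male controls. It measured 23.0, 20.1, 22.4, 13.3 and 13.3 CPM in female stressed libraries and 15.6, 11.2, 29.0, 30.6 and 27.4 CPM in male stressed libraries. Among stressed males 3 libraries exceeded every female library, and the other 2, which belong to the 6 low libraries, lay within or below the range of the stressed females. The log2 fold change was 0.31 ± 0.21 in controls (adjusted p = 0.495) and 0.39 ± 0.20 in stressed mice (adjusted p = 0.715). With the model fitted to the 2 control groups alone, Rpl39 passed (0.31, adjusted p = 0.0478), as 1 of 80.

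Rpl10, which is among the last proteins to join the large subunit, lies at chrX:74270812-74273135 (plus strand). It measured 148, 151, 150, 130 and 141 CPM in female controls and 157, 166, 158, 155 and 169 CPM in male controls. It measured 162, 157, 164, 127 and 130 CPM in female stressed libraries and 129, 126, 161, 184 and 161 CPM in male stressed libraries, where the sexes overlapped. The log2 fold change was 0.15 ± 0.09 in controls (adjusted p = 0.441) and 0.05 ± 0.09 in stressed mice (adjusted p = 0.948), and the latter turned to -0.0302 without male stressed 4. Rpl36a, at chrX:134585654-134588056 (plus strand), overlapped between the sexes in both treatments, from 32.8 to 53.6 CPM in female controls and from 44.4 to 53.3 CPM in male controls. Its log2 fold change was 0.13 ± 0.18 in controls (adjusted p = 0.781).

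**Figure D5:**
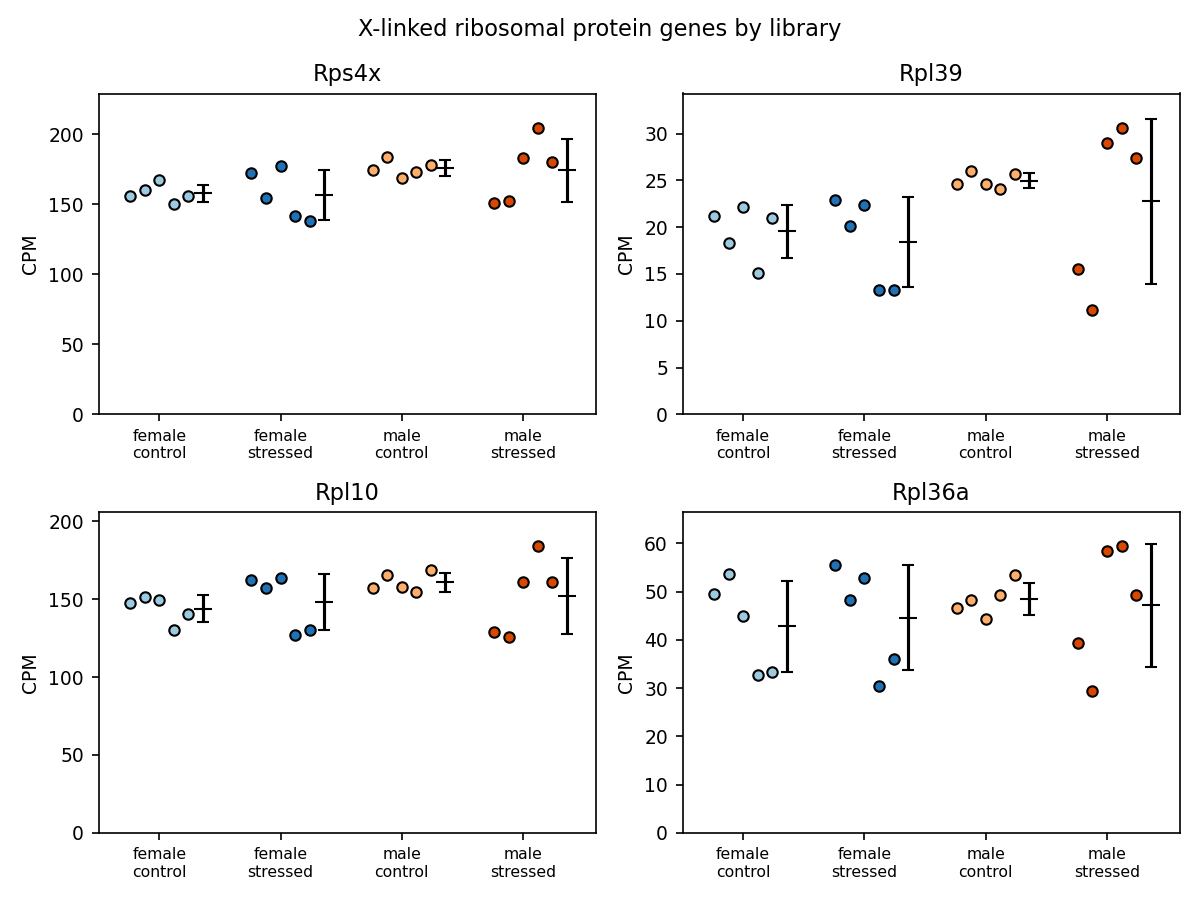
CPM (vertical axis, from 0) of the 4 X-linked ribosomal protein genes in each library by group, in replicate order, with the mean and SD beside them. Male controls lie above all female controls in Rps4x, Rpl39 and Rpl10 but not in Rpl36a, and male stressed 1 and 2 lie low in all 4 genes.

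The sexes were also compared over both treatments, a comparison added after the values were seen. In the model used above, 0 of 80 genes were called (0.362% of all genes), and 2 of 80, Rps4x and Rpl39, had an unadjusted p under 0.05 (12.3% of all genes). Rps4x stood at 0.16 ± 0.05 (adjusted p = 0.236) and Rpl39 at 0.35 ± 0.14 (adjusted p = 0.303). Because the shared movement adds to the spread within groups, the fit was repeated with a library-level covariate, and the number called then depended on which covariate was used. With the ribosomal protein mean as covariate 2 of 80 were called (0.57% of all genes), Rps4x at 0.12 ± 0.03 (adjusted p = 0.0436) and Rpl41 at -0.17 ± 0.03 (adjusted p = 0.0204). This covariate is made of the same 80 genes and takes up movement that they share. Its fold changes are therefore relative to the other ribosomal protein genes. The median log2 fold change of the 80 genes was 0.066 without this covariate and 0.00713 with it. With the mean of the short transcripts in its place 9 of 80 were called (0.778% of all genes), all higher in males, among them Rpl10, Rpl14, Rpl22l1, Rpl37a, Rpl39, Rps20, Rps3a1 and Rps4x. In that fit Rps4x stood at 0.17 ± 0.03 (adjusted p = 0.00662), Rpl39 at 0.37 ± 0.07 (adjusted p = 0.00745) and Rpl41 at -0.06 (adjusted p = 0.409). Both covariate fits were tried with the results of the first known. The calls with the ribosomal protein mean rested on single libraries, since 0 of 80 were left without female control 1, female control 2 or male stressed 2. In every one of these fits, and without any one library, Rps4x was the higher in males. So was Rpl39, and in the first fit 63 of 80 genes lay above 0. Rpl10, Rpl36a and Rps20 were also higher in males in every one of these fits, and in the first without any one library. The direction was thus not particular to Rps4x.

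Rpl41, a very short peptide at the bridge between the subunits, measured 198, 198, 182, 134 and 137 CPM in female controls and 171, 162, 146, 168 and 177 CPM in male controls. It measured 194, 174, 202, 127 and 135 CPM in female stressed libraries and 118, 98.4, 189, 192 and 153 CPM in male stressed libraries. The sexes overlapped in both treatments, and without a covariate its log2 fold change over both was -0.09 ± 0.11 (adjusted p = 0.788).

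Levels between genes were compared per kilobase of a representative transcript, on the scale of CPM per kb. The highest in the large subunit were Rplp1 of the stalk (563 ± 75.6, SD over 20 libraries), Rpl13a (449 ± 63.3) and Rpl41 (320 ± 59.4), and in the small subunit Rps24 (411 ± 77.1), Rps15 (349 ± 44.5) and Rps29 (291 ± 49.7). The lowest were Rpl22 (28.6 ± 3.08), Rpl7l1 (29.7 ± 2.32) and Rpl36al (30.2 ± 4.70) in the large, and Rps27l (12.7 ± 2.88), Rps20 (20.1 ± 3.09) and Rps4l (25.8 ± 3.26) in the small subunit. The value of Rps20 rests on a transcript model of 3706 bases and that of Rps15a on one of 5130 bases, so both are low by the model chosen. The median over the 80 genes was 141 CPM per kb. The 3 stalk proteins, which bind the elongation factors, stood at 563 (Rplp1), 188 (Rplp2) and 101 (Rplp0) CPM per kb, and the largest log2 fold change among them in the 4 pairwise comparisons was 0.14 ± 0.11, for Rplp2 in stressed males minus stressed females.

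Several paralogs are expressed beside the common form. Rpl22l1, a paralog of the RNA-binding protein Rpl22, measured 34.7 CPM on average and Rpl22 58.6 CPM, which is 66.2 against 28.6 CPM per kb because the transcript models differ in length, 525 against 2048 bases. Rpl22l1 swung more between libraries than Rpl22 (slope 1.70 against 0.734). Rpl7l1 measured 29.7 CPM per kb against 152 for Rpl7, Rpl36al 30.2 against 94.7 for Rpl36a, and Rpl37rt, a retrotransposed copy, 33.8 against 107 for Rpl37. Rps4l measured 25.8 CPM per kb and Rps4x 171. In GENCODE M21, 58 of the 80 genes have at least 1 pseudogene named after them, 283 in all, and the counts of such genes and of the paralogs are uncertain to the extent that reads were shared among copies.

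Genes of related pathways were read from the same fit. Of 20 other oligopyrimidine mRNAs, Eif2s3x was called in both sex comparisons, lower in males by -0.74 ± 0.06 in controls (adjusted p = 4.29e-08) and -0.67 ± 0.06 in stressed mice (adjusted p = 9.06e-08), and 0 of 20 were called for stress. Among 51 initiation factors the calls were Eif2s3x and its Y-linked partner Eif2s3y. In ribosome assembly (34 genes), RNA polymerase I (12), the mTOR pathway (17) and the mitochondrial ribosomal proteins (78), 0 were called in any of the 6 comparisons. Over the 20 libraries the mean of the other oligopyrimidine mRNAs followed the ribosomal protein mean with r = 0.874 (rho 0.844, and 0.824 without 2). It gave r = 0.807 within the 14 libraries above the widest step and 0.741 within the 6 below it. Single genes of this list had a median within-group correlation of 0.593, and Pabpc1 (-0.449), Eif4b (-0.227) and Eef2 (-0.139) lay below 0. The mean of the assembly factors gave r = 0.668 (rho 0.460, and 0.416 without 2) and that of the mTOR pathway -0.627 (rho -0.511, and -0.470 without 2).

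The spread between pools set what could be seen. The biological coefficient of variation had a median of 12.9% over the 80 genes (6.82% for Rpl7l1 to 22.8% for Rps14), against 7.72% over all genes. Differences between the 4 groups made up a median of 9.08% of a ribosomal protein gene's variance in log2 CPM, against 20.9% over all genes. This share is not adjusted for the number of groups, so noise alone also gives a share above 0. The largest shares were those of Rpl7l1 (31.7%), Rps15a (31.6%) and Rps4x (30.2%).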

How the data were processed

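The data are whole-number read counts per gene symbol for 20 libraries, deposited by the authors with no normalization. Libraries were poly-A selected and stranded, per the labels' protocols. STAR, featureCounts and the build mm10 are named, without versions, per the submitters' processing notes. Annotation, strand and multi-mapping settings are not given in the sources used here. All rows had a total of at least 1002 counts. No column was left over.

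Counts were tested with edgeR 4.0.16 in R 4.3.3 (TMM scaling, filterByExpr, 1 mean per group, quasi-likelihood test, two-sided), with Benjamini-Hochberg adjustment over 12988 genes, a threshold of 0.05 and a prior count of 2 for log2 CPM. DESeq2 1.42.0 and limma 3.58.1 were alternatives. The script was tested on simulated data. Lengths, GC content and gene positions came from GENCODE M21, using the transcript of lower-median length, for 12934 genes (99.6%). The length and GC correction used lowess with a span of 0.3. Replicate numbers were not taken to pair libraries: over 30 pairs, same-numbered libraries of different groups had correlations from -0.473 to 0.237 (mean -0.0845), against a mean of 0.0210 for others. Replicates differed beyond sampling noise in all 40 pairs within groups (chi-square per degree of freedom 1.88 or more).

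Genes named were those of smallest p in each comparison, the X-linked genes, paralogs, stalk proteins, the extremes of level and the genes most and least like the rest; Rpl41, Rps14, Rpl3, Rpl4, Rps2 and the genes outside the group were named after their values were seen. A pair of genes is not reported by name here. The members and lists were chosen with earlier results of these data known.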

Additional observations from a re-analysis of the deposited data

Results flagged for a closer look

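Of 136 groups of 5 libraries examined for named genes, shares and the ribosomal protein mean, 2 held a library far from the other 4, where chance gives about 1 in 20. Rpl7 measured 203 CPM in male control 5 and 174 to 177 CPM in the other male controls. Rpl7l1, its paralog, measured 45.8 CPM in male stressed 4 and 38.7 to 39.9 CPM in the other male stressed libraries. Both libraries had the highest ribosomal protein share of their group.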

How the results depend on the processing

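The number of ribosomal protein genes called for stress (in females, in males and over both sexes), for the interaction and for sex in stressed mice was 0 under every alternative run. For sex in controls it was 1 with only the groups compared (Rpl39) and 1 with the short transcripts' mean as covariate (Rpl10, adjusted p = 0.0419), and 0 otherwise. For sex over both treatments it was 1 with the length and GC trend removed (Rps4x, adjusted p = 0.0489), 2 with the ribosomal protein mean and 9 with the short transcripts' mean as covariate. Starting from the fit with the ribosomal protein mean, it was 9 with the short transcripts' mean, 1 with the small subunit's mean (Rpl41), and 0 to 2 with 1 library left out. Rpl10, sex in stressed mice, log2 fold change, ran from -0.0302 to 0.109 with 1 library left out. With the replicate number as a block 0 of 80 genes were called in each of the 6 comparisons, and no other call changed. Medians of the 80 genes changed sign under some alternatives but moved by less than the spread of their mean within groups. That spread, 0.203, is larger than every one of these medians, so the comparison does not show that they are stable. The causes of these changes were not tested. Depth limits the library female control 4 most, with 2707881 counts.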
